A study of Mus musculus with 4 samples.

Results

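The genes of oxidative phosphorylation were followed across the cell types of the young mouse cerebellum, in 4 droplet-based single-cell RNA libraries. Members were chosen by symbol: 111 symbols began with mt-Nd, mt-Co, mt-Cyt, mt-Atp, Nduf, Uqcr, Sdh, Cox4 to Cox8 or Atp5, and the 110 that reached 100 unique molecular identifiers (UMIs, each the tag of 1 captured RNA molecule) over the 4 libraries were kept, out of 32285 genes. The gene left out was Cox8c. No expression difference between cell types, ages or genotypes entered the choice. The mitochondrial genome encodes 13 of the members and the nucleus 97.

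The libraries were of whole cerebellum from mice labelled WT or Eftud2 cKO, at postnatal day 10 (P10) or 14 (P14), with 1 library for each genotype and age and no other treatment. Eftud2 encodes a GTPase of the spliceosome, and cKO is the labels' term for the mutant. The series title places the deficiency in Purkinje cells, whereas the labels name no Cre line, deleted exon, sex, strain or number of animals per library. Meninges had been removed and the tissue dissociated with trypsin before capture. With a single library per group, differences between genotypes at 1 age have no replicate check, and the intervals given with them cover counting error only.

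Wherever 4 values are set in a row, they are those of WT then cKO at P10, followed by WT then cKO at P14, and this is meant by library order. After filtering, 13639, 6347, 14755 and 6128 cells remained, with median depths of 7676 to 12185 UMIs per cell. Pairs of libraries shared 12 to 83 cell barcodes. Cells were assigned to classes by markers that include no member, and 11 classes held at least 20 cells in every library. No Purkinje class reached 20 cells in any library, so the cells named in the title are not described here. Over the 11 classes together Eftud2 itself stood at 52.4, 54.96, 47.08 and 44.99 counts per 1000000 UMIs (CPM). In astroglia, from 105, 102, 303 and 127 UMIs, it was higher in cKO at both ages, at 40.11 against 61.81 CPM at P10 and 36.16 against 48.14 at P14. In granule cell progenitors it was also higher at both, at 75.29 against 79.17 and 75.18 against 75.49. In endothelial cells it was lower at both, at 58.33 against 56.77 and 81.6 against 74.33. In the other classes the direction differed between the ages, as in oligodendrocytes at 30.96 against 40.6 and 38.06 against 26.92. The deposited P10 WT matrix was written by another program version than the others, and genes with introns under 5 kb in total took 36.8% to 57% of its UMIs per class, against 25% to 45.5% in the other libraries. Nuclear members are short genes, with a median total intron length of 5368 bp against 17580 bp for all genes above 100 UMIs, and their CPM in P10 WT was higher in each of the 11 classes. Levels are therefore given per library, and classes were compared within libraries.

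Oxidative phosphorylation passes electrons from NADH and succinate along complexes I to IV of the inner mitochondrial membrane and uses the proton gradient they build to drive ATP synthesis at complex V. Complexes I, III, IV and V are built from subunits of both genomes, so their assembly needs transcripts made in the nucleus and transcripts made in the organelle. Complex II is encoded in the nucleus alone. Several nuclear subunits exist as alternative isoforms that occupy the same place in a complex and differ between tissues.

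Among the 97 nuclear members were 30 accessory and 7 core subunits of complex I with 8 assembly factors, 4 subunits of complex II with 4 assembly factors, 8 members of complex III, 19 of complex IV and 17 of complex V. Within complexes, levels not scaled for length spanned wide ranges over the 44 sums of a class and library. In complex I the accessory subunit Ndufb9 had the highest median, 302 CPM, and the core iron-sulphur subunit Ndufs1 the lowest, 52.0 CPM. In complex II the iron-sulphur subunit Sdhb was highest, at 120 CPM, and the membrane anchor Sdhd lowest, at 61.9 CPM. In complex III the hinge protein gene Uqcrh stood at 417 CPM and the core protein gene Uqcrc1 at 84.1 CPM. In complex IV the ubiquitous isoform Cox4i1 stood at 797 CPM, and the isoform Cox6a2, known from heart and skeletal muscle, had a median of 0. In complex V the peripheral stalk gene Atp5h stood at 425 CPM and Atp5k, the e subunit, at 125 CPM.

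The ring subunit and Cox6b families, whose isoform balance differed between classes, are shown by the 250 bases upstream of their annotated starts (RefSeq, GRCm38.p6, minus strand, 5′ to 3′). Atp5g1, Atp5g2 and Atp5g3 encode the same c subunit of the ATP synthase ring behind different import sequences, and Cox6b1 and Cox6b2 encode the common and the testis-known form of a complex IV subunit. Capitals mark matches to the NRF1 motif, which is GCGCA and GCGC with any base between them, or to CCGGAAG, the ETS motif, searched on both strands. The windows are chr11:96075632-96075881, chr15:102671048-102671297, chr2:73911327-73911576, chr7:30626115-30626364 and chr7:4753095-4753344, in the order printed.
Atp5g1: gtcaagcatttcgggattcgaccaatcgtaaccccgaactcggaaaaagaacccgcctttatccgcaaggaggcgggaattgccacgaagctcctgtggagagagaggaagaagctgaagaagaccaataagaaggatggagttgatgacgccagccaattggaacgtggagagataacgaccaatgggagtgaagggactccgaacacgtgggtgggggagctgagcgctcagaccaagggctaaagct
Atp5g2: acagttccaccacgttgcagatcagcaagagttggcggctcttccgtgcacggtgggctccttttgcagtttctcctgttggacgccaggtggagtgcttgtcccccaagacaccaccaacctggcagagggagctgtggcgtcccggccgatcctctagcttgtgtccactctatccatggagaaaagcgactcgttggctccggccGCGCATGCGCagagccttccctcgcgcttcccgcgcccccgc
Atp5g3: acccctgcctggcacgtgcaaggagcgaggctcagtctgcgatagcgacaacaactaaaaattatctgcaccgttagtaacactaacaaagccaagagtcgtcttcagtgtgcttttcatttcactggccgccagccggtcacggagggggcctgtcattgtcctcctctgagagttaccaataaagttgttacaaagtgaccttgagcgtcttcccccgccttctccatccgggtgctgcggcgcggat
Cox6b1: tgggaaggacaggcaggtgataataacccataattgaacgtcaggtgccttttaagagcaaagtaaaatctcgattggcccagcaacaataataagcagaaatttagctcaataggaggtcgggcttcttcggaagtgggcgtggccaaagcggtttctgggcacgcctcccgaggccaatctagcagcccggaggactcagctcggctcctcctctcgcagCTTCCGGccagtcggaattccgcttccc
Cox6b2: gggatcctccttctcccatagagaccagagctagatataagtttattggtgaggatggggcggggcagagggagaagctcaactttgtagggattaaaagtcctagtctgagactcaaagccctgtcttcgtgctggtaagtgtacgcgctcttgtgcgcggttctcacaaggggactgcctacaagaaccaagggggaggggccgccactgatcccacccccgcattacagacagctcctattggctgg
Of the 97 nuclear members, 81 had a promoter in the table. The NRF1 motif was found in 14 of them, 17.3%, against 4.23% of 27025 promoters of the same length. The ETS motif was found in 16, or 19.8%, against 7.83%. The SP1 motif GGGCGG was found in 35, or 43.2%, against 35.4%, and the YY1 motif AAGATGGCG and the ERR motif TCAAGGTCA in 1 each, against 0.71% and 0.422% of all promoters. Within the families shown, the NRF1 match lay upstream of Atp5g2 and the ETS match upstream of Cox6b1. The window of Atp5g3 also held the ERR match and that of Cox6b2 an SP1 match, which are not in capitals. A match describes letters in this window and was not related to any level.

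The balance between the genomes differed by class. The ratio of mitochondrially encoded to nuclear member UMIs was lowest in granule cell progenitors, which divide in the external granular layer, at 0.858, 0.923, 1.02 and 0.971. The highest mean over the libraries, 2.07 ± 0.328 (SD, n = 4), was that of astroglia, which include Bergmann glia, at 2.54, 1.83, 2.03 and 1.87. Astroglia ranked first in P10 WT alone; oligodendrocytes did in both cKO libraries and microglia in P14 WT. The ranges of astroglia, oligodendrocytes and microglia over the libraries overlapped, whereas those of granule cell progenitors and astroglia did not.

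Between them the mean ratio, with its SD over the 4 libraries, rose from 1.16 ± 0.147 in oligodendrocyte precursors, 1.21 ± 0.186 in granule neurons and 1.32 ± 0.228 in GABAergic interneurons through 1.36 ± 0.285 in endothelial cells and 1.39 ± 0.272 in blood leukocytes. It continued to 1.66 ± 0.319 in fibroblasts, 1.71 ± 0.275 in border macrophages, 1.86 ± 0.207 in oligodendrocytes and 1.88 ± 0.216 in microglia. The means of neighbouring classes in this order lay within their spread. In the neural lineages, precursors stood below their differentiated cells in each library: oligodendrocyte precursors at 0.996, 1.21, 1.33 and 1.09 against oligodendrocytes at 1.62, 2.10, 1.80 and 1.94.

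Astroglia differed from progenitors mainly in the first term of the ratio. Astroglia held 71123, 31069, 35220 and 41986 CPM of mitochondrially encoded transcripts. Granule cell progenitors held 24582, 17591, 20626 and 20362. For nuclear members the same classes were much closer, with 27960, 17000, 17333 and 22420 CPM in astroglia and 28651, 19055, 20145 and 20965 in progenitors. Microglia had the lowest nuclear sum in each library except P14 cKO, at 17018, 11794, 10128 and 13738 CPM. In P14 cKO border macrophages were lower, at 13085 CPM.

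Some classes were captured in fewer libraries. Choroid plexus cells, the secretory epithelium that makes cerebrospinal fluid, reached 20 cells in P14 WT alone, with 361 cells. Their nuclear members summed to 58188 CPM, above each of the other sums, and their mitochondrial to nuclear ratio was 0.428, below each of the others. Mural cells, the pericytes and smooth muscle of vessels, numbered 54 in P10 WT and 26 in P14 WT and had ratios of 1.27 and 1.61.

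**Figure D1:**
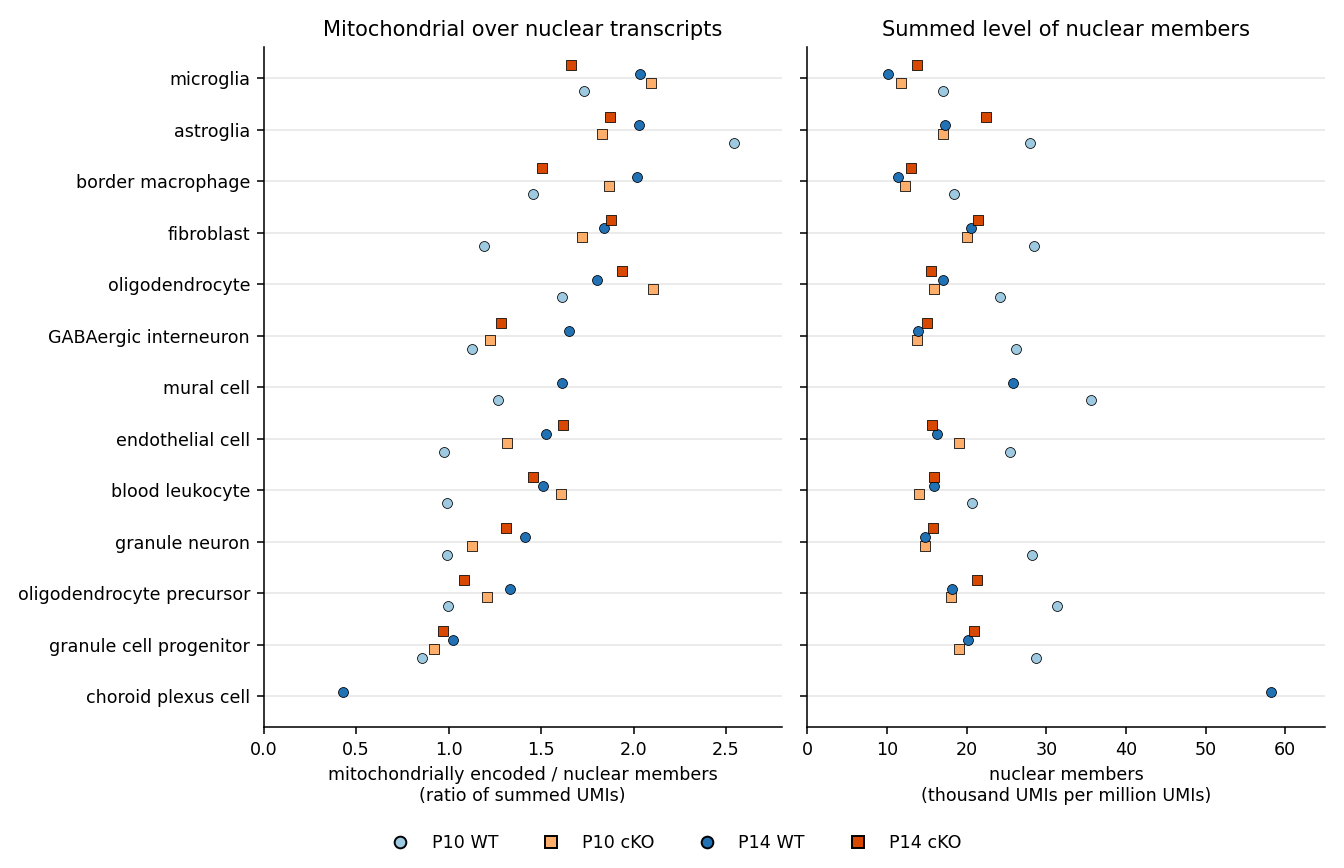
Left, UMIs of mitochondrially encoded members divided by UMIs of nuclear members; right, the summed level of nuclear members in CPM divided by 1000; each point is 1 library of a class with at least 20 cells. Granule cell progenitors lie between 0.858 and 1.02 and astroglia between 1.83 and 2.54 on the left, and choroid plexus cells stand alone at 58188 CPM on the right.

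Each class was next compared with the mean of the other 10 classes by edgeR's quasi-likelihood test with the library as a block, adjusted by Benjamini-Hochberg over 15949 genes; a gene was called at an adjusted p under 0.05 and a fold of at least 1.5. All 13 mitochondrially encoded members and 95 nuclear members passed the filter on low counts, which removed Cox7b2 and Cox8b. The libraries are separate captures of different ages and genotypes, and the test measures how stable a class difference is across them.

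Mitochondrially encoded genes were called in 8 of the 11 classes, in 1 direction per class. In astroglia 10 of 13 were higher, where 27.8% of all genes were, and 6 were with at most 10% mitochondrial UMIs per cell. mt-Nd6, the complex I subunit read from the light strand, had 105.8, 51.51, 39.98 and 72.77 CPM, against 19.77, 16.17, 11.61 and 19.71 in granule cell progenitors, and was 1.45 higher on the log2 scale in astroglia than in the other classes. mt-Nd2 followed at 1.08, mt-Nd4 at 1.06, mt-Nd5 at 1.03 and mt-Nd4l at 0.95, all membrane-arm subunits of complex I. mt-Cytb of complex III was higher by 0.87, the complex IV core subunits mt-Co3, mt-Co1 and mt-Co2 by 0.74, 0.70 and 0.60, and mt-Atp6 of complex V by 0.58. mt-Nd1, mt-Nd3 and mt-Atp8 had 0.57, 0.31 and 0.20 and were not called.

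In oligodendrocytes 6 mitochondrially encoded members were higher, where 24.4% of all genes were: mt-Nd3 by 0.76, mt-Nd4 by 0.74, mt-Atp8 and mt-Atp6 by 0.72, mt-Co1 by 0.69 and mt-Nd4l by 0.66 on the log2 scale. Fibroblasts had 3 higher, mt-Cytb by 0.93, mt-Nd4 by 0.71 and mt-Nd2 by 0.64, with a background of 25.2%. In GABAergic interneurons 6 were lower, where 22.7% of all genes were, led by mt-Nd4 at -0.80, mt-Atp8 at -0.79 and mt-Nd2 at -0.76. Oligodendrocyte precursors had mt-Nd4l and mt-Co1 lower, at -0.74 and -0.61, with a background of 18.6%. Granule cell progenitors had mt-Nd6 lower at -0.66 (background 19.8%), border macrophages mt-Cytb at -0.65 (23.3%) and leukocytes mt-Cytb at -0.68 and mt-Nd2 at -0.61 (26.1%). No mitochondrially encoded member was called by edgeR in endothelial cells, granule neurons or microglia.

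Nuclear members were called in each of the 11 classes. Fibroblasts had 17 of 95 higher and 1 lower, granule cell progenitors 14 higher (30.7% of all genes) and 2 lower, astroglia 11 higher and 1 lower (18.8%), and oligodendrocytes 10 higher and 4 lower (25.3%). Endothelial cells had 8 higher (22.1%) and 4 lower (21.6%), and oligodendrocyte precursors 7 higher (23.7%) and 3 lower. Microglia had 23 lower, 24.2% of those tested against 22.3% of all genes, and 2 higher against 25.9%. Border macrophages had 20 lower and 2 higher (22.8%), interneurons 14 lower and 1 higher (24.4%), leukocytes 11 lower and 3 higher (19.6%), and granule neurons 4 lower (19.2%) and 2 higher (28.2%). The share lower in microglia was near the background, and the other shares were below it. The count in progenitors ranged from 4 without P14 WT to 9 without P14 cKO, that in astroglia reached 22 without P10 WT, and those lower in microglia and higher in oligodendrocytes reached 36 and 19 without P14 cKO.

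**Figure D2:**
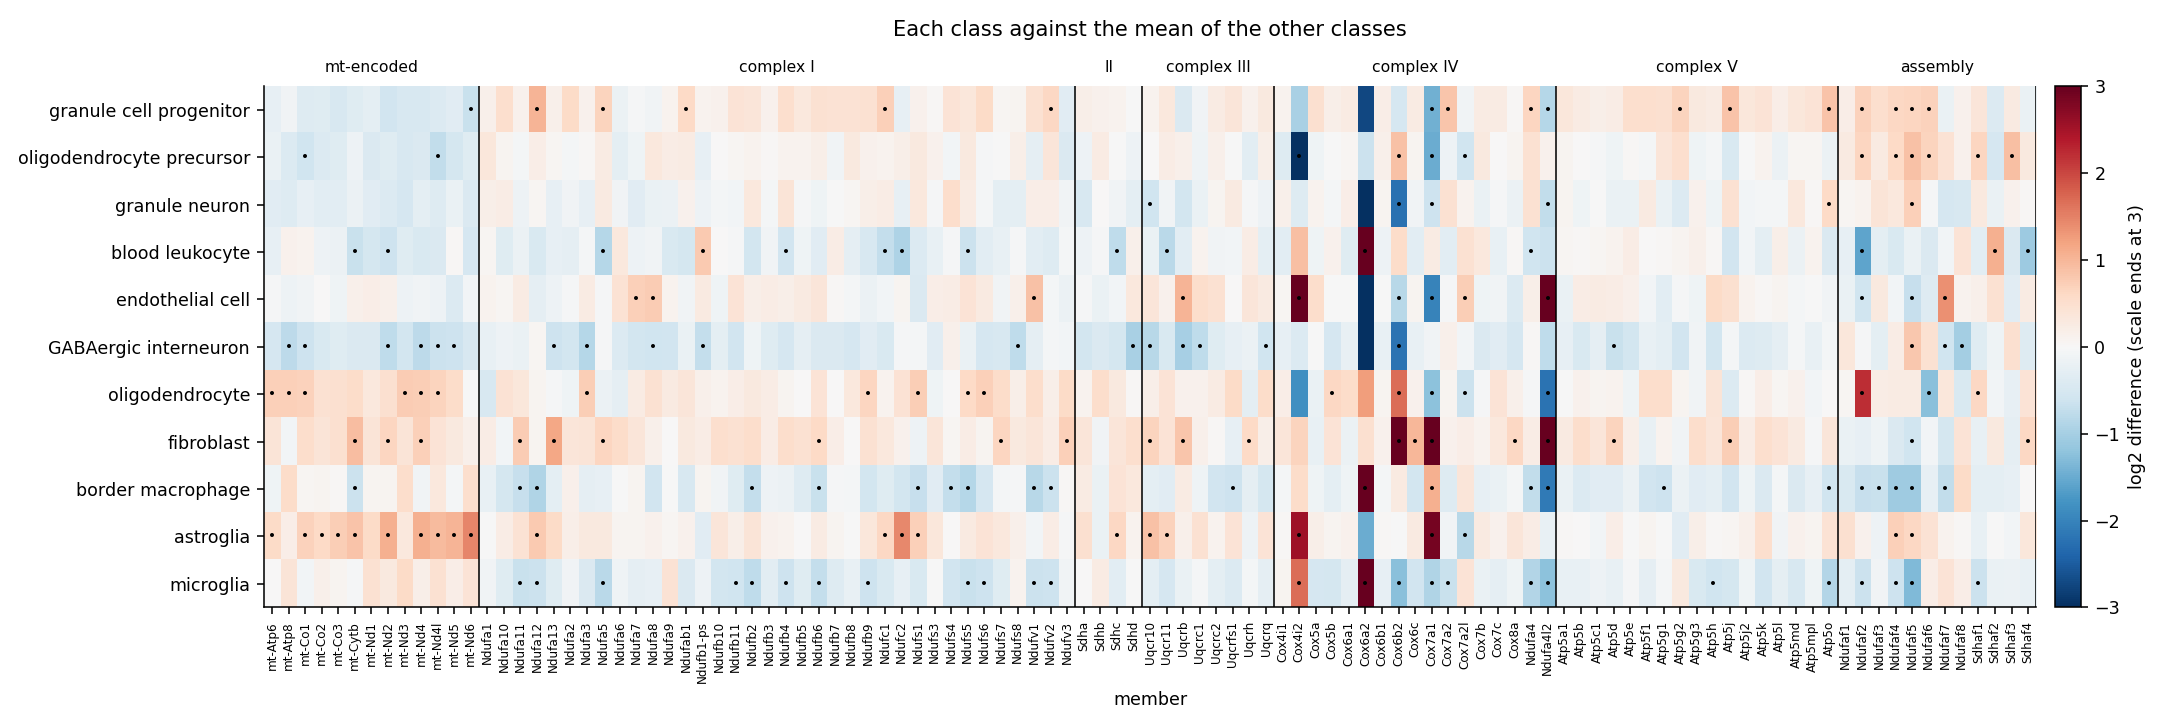
Log2 difference of tested members (columns, grouped by complex and genome) in each class (rows) against the mean of the other classes, red higher and blue lower, with a dot where the gene was called. The mitochondrially encoded block is red in astroglia and oligodendrocytes, and isolated dark columns such as Cox7a1, Cox6b2 and Ndufa4l2 mark alternative isoforms.

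In complex I, the NADH dehydrogenase, single subunits set classes apart. Ndufc2, an accessory subunit of the membrane arm, had 539, 533, 646 and 567 CPM in astroglia, against 252, 162, 197 and 180 in granule cell progenitors. The astroglial values lay above the progenitor values in every library, and the difference from the other classes was 1.43 on the log2 scale (SE 0.087, edgeR adjusted p = 3.36e-17). Ndufa12, another accessory subunit, had 347, 243, 259 and 256 CPM in progenitors, and was higher there by 1.02. It was also higher in astroglia, by 0.78, and lower in border macrophages, at -0.90.

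In fibroblasts Ndufa13, a complex I subunit also studied as a cell-death regulator, was higher by 1.17, at 689, 528, 497 and 573 CPM. Ndufa13 overlaps Yjefn3 on the same strand by 8379 bp, its whole annotated span, and the effect of this on its counts was not tested. In endothelial cells the flavoprotein Ndufv1, which binds NADH, was higher by 0.88, with 140, 119, 94.8 and 77.9 CPM. Of 37 nuclear complex I subunits, 12 were lower in microglia, or 32.4% against 22.3% of all genes, and 10 in border macrophages, or 27.0% against 23.3%. In microglia these included Ndufa5 at -0.81, Ndufb2 at -0.76 and Ndufb6 at -0.71. In border macrophages Ndufs5, at -0.86, was among them. In leukocytes Ndufc2 was lower at -0.91 and Ndufa5 at -0.85, while Ndufb1-ps, named a pseudogene by its symbol, was higher by 0.78.

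Assembly factors of complexes I and II were called in several classes. Ndufaf2, a chaperone of late complex I assembly, had 184, 183, 206 and 145 CPM in oligodendrocytes, against 25.03, 39.6, 25.6 and 28.3 in microglia. These ranges were far apart, and the difference from the other classes was 2.21 (SE 0.089, edgeR adjusted p = 7.38e-23). Leukocytes were lower for the same gene, at -1.59. Ndufaf2 overlaps Smim15 and B230220B15Rik, both on the opposite strand, by 4727 and 1955 bp, and the effect of this on its counts was not tested. Ndufaf5, a methyltransferase-like assembly factor, was lower in microglia at -1.33, in border macrophages at -1.07 and in fibroblasts at -0.59. The same gene was higher in oligodendrocyte precursors by 0.87, in interneurons by 0.81 and in granule neurons by 0.72. Its counts were small in microglia, at 2.99, 7.26, 4.09 and 3.71 CPM.

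Other assembly factors followed single classes. Ndufaf6 was higher in oligodendrocyte precursors by 0.66 and lower in oligodendrocytes at -1.25. Sdhaf3 and Sdhaf1, which help to build the iron-sulphur subunit of complex II, were higher in oligodendrocyte precursors by 0.91 and 0.65. Sdhaf2, which helps to flavinate Sdha, was higher in leukocytes by 1.07, and Sdhaf4 was lower there at -1.10. Ndufaf7 was higher in endothelial cells, by 1.37, with 42.9, 66.5, 89.7 and 80.8 CPM. Ndufaf4 was lower in border macrophages at -1.07, and Ndufaf8 in interneurons at -1.02. In oligodendrocyte precursors 6 of 12 assembly factors were higher, where 23.7% of all genes were. In granule cell progenitors 4 of 12 were, or 33.3%, near the 30.7% of all genes.

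In complexes II and III, interneurons had 5 subunits lower, more than any other class. These were 1 of 4 in complex II, or 25%, and 4 of 8 in complex III, or 50%, where 22.7% of all genes were lower. The anchor subunit Sdhd had 51.8, 24.0, 34.4 and 40.3 CPM in interneurons, below the 60.2, 43.7, 70.2 and 63.2 of granule cell progenitors in each library, and was lower than in the other classes at -0.97. Uqcrb, the ubiquinone-binding protein gene of complex III, had 459, 351, 331 and 299 CPM in endothelial cells and 186, 92.5, 93.4 and 123 in interneurons, with differences of 1.01 and -1.001. It overlaps Gm10767 on the opposite strand by 465 bp. In interneurons 4 of the 8 complex III members were lower, among them Uqcr10 at -0.83, which was higher in astroglia by 0.88 and lower in granule neurons at -0.60. Uqcr11 was lower in leukocytes at -0.80. Ndufs8, a core subunit of complex I, was lower in interneurons at -0.77, and the accessory subunit Ndufa3 at -0.86.

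Complexes IV and V also gave calls outside the isoform pairs. Cox6c had 1237, 816, 549 and 848 CPM in fibroblasts and 385, 242, 170 and 314 in microglia, and was higher in fibroblasts by 0.996. Ndufa4, first counted with complex I and now placed in complex IV, was lower in microglia at -0.89, with 321, 189, 186 and 251 CPM. Cox7a2l, the supercomplex assembly factor also known as Scafi, was lower in astroglia at -0.83, in oligodendrocytes at -0.65 and in oligodendrocyte precursors at -0.60. In granule cell progenitors Cox7a2 was higher by 0.82, together with the complex V subunits Atp5j, by 0.86, and Atp5o, by 0.84. Atp5o was also higher in granule neurons by 0.59 and lower in microglia at -0.88, with 196, 120, 131 and 145 CPM there against 610, 417, 532 and 465 in progenitors.

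The largest log2 differences between classes among the nuclear members were those of alternative isoforms. Ndufa4l2, a hypoxia-inducible relative of Ndufa4, was the main isoform in mural cells. Its 1202 CPM in P10 WT and 1713 CPM in P14 WT were 83.9% (exact binomial 95% interval 80.2 to 87.2) and 94.7% (91.4 to 97.0) of the UMIs of the pair. In fibroblasts Ndufa4l2 had 33.2, 27.6, 30.2 and 25.04 CPM and 4.43% to 5.78% of the pair, and in endothelial cells 7.85, 16.9, 9.35 and 3.57 CPM. Against the other 10 classes, which leave out mural cells, it was higher in fibroblasts by 5.25 and in endothelial cells by 3.41. It was lower in oligodendrocytes at -2.22, in border macrophages at -2.11 and in microglia at -1.23. Mural markers moved with it: their summed CPM was 173, 224, 190 and 105 in endothelial cells, against 4434, 3880, 3603 and 4861 in fibroblasts and 28010 and 36000 in mural cells. The part of mural RNA in the endothelial and fibroblast values was not tested.

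Cox4i2, the lung-known and oxygen-sensitive isoform of Cox4i1, followed the same cells. Mural cells had 613 CPM in P10 WT and 773 in P14 WT, which was 29.1% and 39.2% of the pair. Elsewhere its share did not exceed 1.03%. In endothelial cells it had 4.27, 8.87, 6.45 and 2.14 CPM and was higher by 3.30, and in astroglia 5.35, 4.24, 2.98 and 1.90 CPM and was higher by 2.54 (SE 0.387, edgeR adjusted p = 7.12e-07). Oligodendrocyte precursors had 0 Cox4i2 UMIs in all 4 libraries, where 3 UMIs would be 0.0755% to 0.284% of the pair. Neither Cox4i1, Cox4i2 nor Ndufa4l2 was in the promoter table.

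Cox6b2, whose upstream window is printed above beside that of Cox6b1, was raised in fibroblasts. It had 71.9, 47.2, 63.8 and 50.1 CPM, or 12.4%, 11.8%, 16.2% and 11.3% of the Cox6b1 and Cox6b2 UMIs. The difference from the other classes was 3.70. Choroid plexus cells had 295 CPM of Cox6b2 and a share of 24.3%. Oligodendrocytes followed at 16.9, 15.9, 11.8 and 12.02 CPM, higher by 1.67, while granule neurons and interneurons were lower at -2.24 and -2.21. Granule neurons had at most 2.62 CPM.

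Cox7a1, known from heart and muscle, marked fibroblasts and astroglia. Fibroblasts had 19.6, 10.9, 11.6 and 22.3 CPM and astroglia 11.5, 7.88, 6.68 and 19.0, and Cox7a1 was higher in them by 3.60 and 2.88 (astroglia SE 0.205, edgeR adjusted p = 4e-15). It was lower in endothelial cells at -2.004, in oligodendrocyte precursors at -1.48, in granule cell progenitors at -1.44 and in oligodendrocytes at -1.24. In border macrophages it was higher by 1.07, in 3 of 4 libraries. Cox7a1 was still a minor isoform, with 2.58% to 5.40% of the Cox7a family's UMIs in astroglia.

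Other muscle isoforms were detected in small numbers. Cox6a2 was higher in leukocytes by 5.85, in microglia by 5.03 and in border macrophages by 4.60, but leukocytes had 15, 0, 10 and 1 UMIs and microglia 37, 19, 10 and 30, and in leukocytes and border macrophages the direction held in 3 of 4 libraries. In microglia Cox6a2 was 1.28% to 6.55% of the pair. Cox8b, another heart and muscle isoform that did not pass the filter for the test, had 526 UMIs in P10 WT fibroblasts, 44.9 CPM, and 23, 7 and 5 UMIs in the other libraries. Its share of the Cox8 UMIs in fibroblasts was 3.96%, 2.17%, 0.33% and 0.43%. Both P10 libraries were above both P14 libraries.

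The ring subunit genes shared the same product unequally. Atp5g2, whose window holds the NRF1 match, gave 57.0%, 55.5%, 59.0% and 54.5% of the family's UMIs in microglia and 53.8%, 51.2%, 53.5% and 53.4% in granule cell progenitors. In granule neurons its share was 49.1%, 42.3%, 40.8% and 36.2%, below progenitors in each library. Atp5g3 gave 24.4%, 29.2%, 31.8% and 36.9% in granule neurons, 20.5%, 21.6%, 19.8% and 21.3% in progenitors and 16.9%, 18.7%, 16.5% and 19.0% in microglia. Atp5g1 reached 58.6% in choroid plexus cells and 31.8% to 35.5% in oligodendrocytes. By the class test Atp5g2 was higher in progenitors by 0.68, and Atp5g1 was lower in border macrophages at -0.62.

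**Figure D3:**
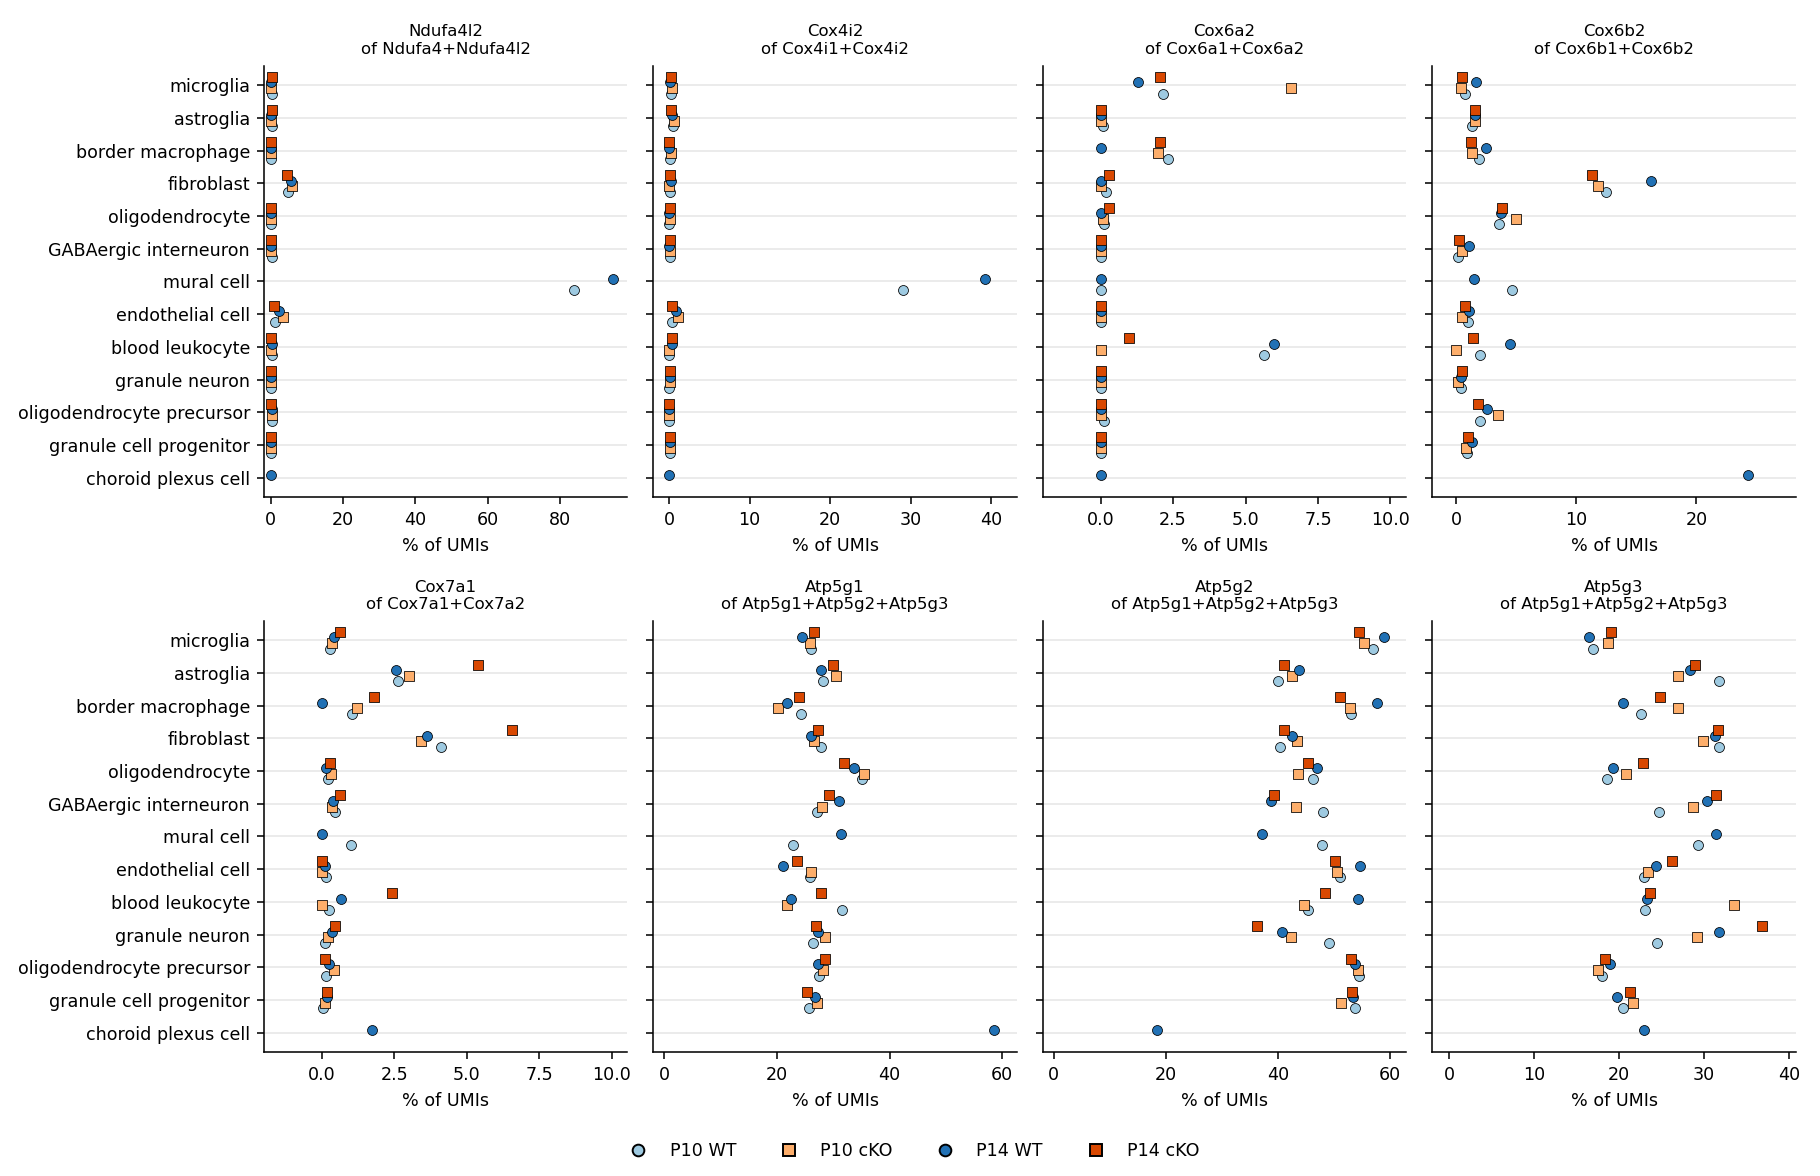
Share of an isoform family's UMIs (x axis, %) taken by 1 isoform, by class (y axis) and library (points). Ndufa4l2 and Cox4i2 are high in mural cells, Cox6b2 in choroid plexus cells and fibroblasts, and Atp5g1 in choroid plexus cells.

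Lists outside the members gave the metabolic setting. In astroglia 12 of 18 glycolysis genes were higher and none lower, against 27.8% and 18.8% of all genes, among them the phosphofructokinase Pfkm by 3.73, the lactate dehydrogenase Ldhb by 2.34 and the enolase Eno1 by 1.70. Of 14 tricarboxylic acid cycle genes, 5 were higher there, or 35.7%, including citrate synthase Cs by 0.83. The coactivator Ppargc1a, a regulator of mitochondrial biogenesis, was higher in astroglia by 5.28 and lower in microglia at -3.37 and in oligodendrocytes at -2.67. Of 11 regulators, 4 were higher and 3 lower in astroglia, and 5 were higher and 3 lower in microglia. In border macrophages 8 of 14 cycle genes were lower, Idh3a at -1.13 most, and 10 of 18 glycolysis genes, against 23.3% of all genes. Interneurons had 11 glycolysis genes lower, such as Ldha at -1.79, and 4 higher, such as the neuronal glucose transporter Slc2a3 by 1.92, against 22.7% and 24.4% of all genes. Microglia had 7 higher, led by hexokinase Hk2 at 4.36, and 3 lower, against 25.9% and 22.3%.

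Further lists covered the machinery around the complexes. In oligodendrocytes 6 of 11 regulators were lower, where 25.3% of all genes were. Of 34 other respiratory and assembly genes 7 were higher there, or 20.6% against 24.4% of all genes, among them Foxred1 by 0.81 and Coa6 by 0.75. In granule cell progenitors 6 of 19 genes of mitochondrial gene expression were higher, or 31.6% against 30.7% of all genes, including the helicase Twnk by 1.12 and the transcription factor Tfam by 0.82, and the topoisomerase Top1mt was lower at -1.13. Of 10 dissociation-response genes, 9 were higher in microglia, 10 in border macrophages, 10 in fibroblasts and 8 in endothelial cells, while 10 were lower in oligodendrocytes, 9 in granule neurons, 8 in progenitors and 7 in astroglia. Of all genes 22.1% to 25.9% were higher in the first 4 of these classes and 18.8% to 25.3% lower in the last 4. Their part in the member differences was not tested.

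Granule neurons are born in the external layer and mature as they migrate inward, and their lineage was split by markers into 5 stages. Mature granule neurons numbered 2, 56, 24 and 114, so P10 WT gave no mature sum. Its progenitors and newborn neurons stayed in the joint fit of the stages. The mitochondrial to nuclear ratio was 0.832, 0.893, 1.10 and 1.10 in progenitors outside S, G2 and M phase and 1.04, 1.06, 1.34 and 1.23 in newborn neurons, higher in newborn neurons in each library. It was 3.68, 3.34 and 2.67 in intermediate neurons of P10 cKO and then of WT and cKO at P14, and 3.22, 1.33 and 1.39 in mature neurons. Intermediate cells were shallow, with median depths of 3471, 2638 and 4735 UMIs against 9470, 7093 and 12190 in newborn neurons of the same libraries. The part of depth in the peak at the intermediate stage was not tested.

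By the edgeR quasi-likelihood test over 12120 genes, which covered 90 nuclear and 13 mitochondrially encoded members, newborn neurons had no mitochondrially encoded member called against progenitors. Of nuclear members 10 were lower and 1 higher, against 22.3% and 21.0% of all genes. Intermediate over newborn neurons had 56 nuclear members lower and none higher, or 62.2% of those tested against 12.2% of all genes, and 7 mitochondrially encoded members higher against 13.1%. Mature neurons had 9 mitochondrially encoded members higher than progenitors, where 24.0% of all genes were, with 7 nuclear members higher and 11 lower (23.5% of all genes). Without P10 cKO the mitochondrially encoded count was 2, and without P14 cKO the nuclear count lower was 23. The scale bears on these counts, since genes with introns under 5 kb took 14.7% to 21.4% of UMIs in intermediate and 25.6% to 27.6% in newborn neurons of the 3 libraries. The nuclear sum went from 14783, 14690 and 15552 CPM in newborn to 6334, 9952 and 10435 in intermediate neurons. Per 1000000 UMIs of these short-intron genes it went from 57645, 53243 and 59726 to 43158, 46535 and 55220, a smaller difference in each library. From progenitors to mature neurons the sum fell from 18958, 20236 and 21288 CPM to 9792, 18564 and 17846. On the short-intron scale it went from 60676, 58029 and 62388 to 58683, 82217 and 81172, so that the direction reversed in both P14 libraries.

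Cycling progenitors differed from non-cycling ones in 1 nuclear member, which was higher, against 9.11% of all genes higher and 3.66% lower.

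Single members moved through the stages differently. mt-Nd1 had 2017, 1391, 1350 and 1480 CPM in progenitors and 3553, 1851 and 1953 in mature neurons of the last 3 libraries, above progenitors of each library, with a difference of 1.03 (SE 0.161, edgeR adjusted p = 1.3e-05). mt-Cytb was higher by 0.93, mt-Nd4 by 0.84, mt-Nd2 by 0.81 and mt-Nd5 by 0.78. Cox8a, the common isoform of a small complex IV subunit, had 804, 514, 547 and 543 CPM in progenitors and 564, 1011 and 913 in mature neurons and was higher by 0.84 (SE 0.146, edgeR adjusted p = 4.98e-05). Ndufs1, the largest core subunit of complex I, went from 33.6, 71.0, 62.3 and 71.5 to 75.9, 112 and 103 CPM, higher by 0.87. Further members higher in mature neurons were Ndufaf3 by 1.36, Ndufaf5 by 0.98 and Uqcrb by 0.74, with Ndufv3 by 0.82 and Ndufc2 by 0.71 in 2 of 3 libraries. Ndufaf3 overlaps Impdh2 by 48 bp.

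The members that fell included ring subunit Atp5g2. It had 846, 469, 557 and 535 CPM in progenitors, 477, 233, 240 and 223 in newborn neurons and 135, 201 and 166 in mature neurons, lower at -1.42 (SE 0.152, edgeR adjusted p = 5.41e-08). Ndufa12 had 399, 254, 268 and 313 CPM in progenitors, 229, 114, 109 and 103 in newborn neurons and 59.4, 141 and 100 in mature neurons, lower than progenitors at -1.28. Ndufaf8 was lower at -1.53, Cox7a2l at -1.05, the epsilon subunit gene Atp5e at -1.04 and Ndufs6 at -0.92. The Atp5g2 share of the ring family was 50.96%, 47.8%, 47.7% and 49.0% in progenitors, 42.9%, 41.3%, 38.8% and 35.4% in newborn neurons and 36.0%, 28.1% and 24.1% in mature neurons. The Atp5g3 share rose from 18.6%, 18.8%, 20.3% and 20.7% in progenitors to 28.5%, 29.7%, 33.8% and 37.4% in newborn neurons. In mature neurons it was 29.8%, 34.4% and 43.6%, near that of newborn neurons in P10 cKO and P14 WT and higher in P14 cKO. The remaining UMIs of the family were those of Atp5g1. These shares are within a library and need no scale between libraries.

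Other lists differed between the stages. Of 18 glycolysis genes, 13 were higher in mature than in newborn neurons, against 16.8% of all genes, and none lower (15.6%), led by the neuronal enolase Eno2 at 6.47 and phosphofructokinase Pfkp at 2.53. Newborn neurons had 8 lower than progenitors, such as the pyruvate kinase Pkm at -1.56, and 3 higher, against 22.3% and 21.0%. Of 19 genes of mitochondrial gene expression, 9 were lower in mature neurons than in progenitors, where 23.5% of all genes were, including Twnk at -1.22 and Tfam at -0.82, and Top1mt was higher by 1.94. Of 10 regulators tested in mature neurons against progenitors, 4 were higher and 4 lower, against 24.0% and 23.5% of all genes. The coactivators Ppargc1a and Ppargc1b were higher in mature neurons by 3.46 and 6.12.

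**Figure D4:**
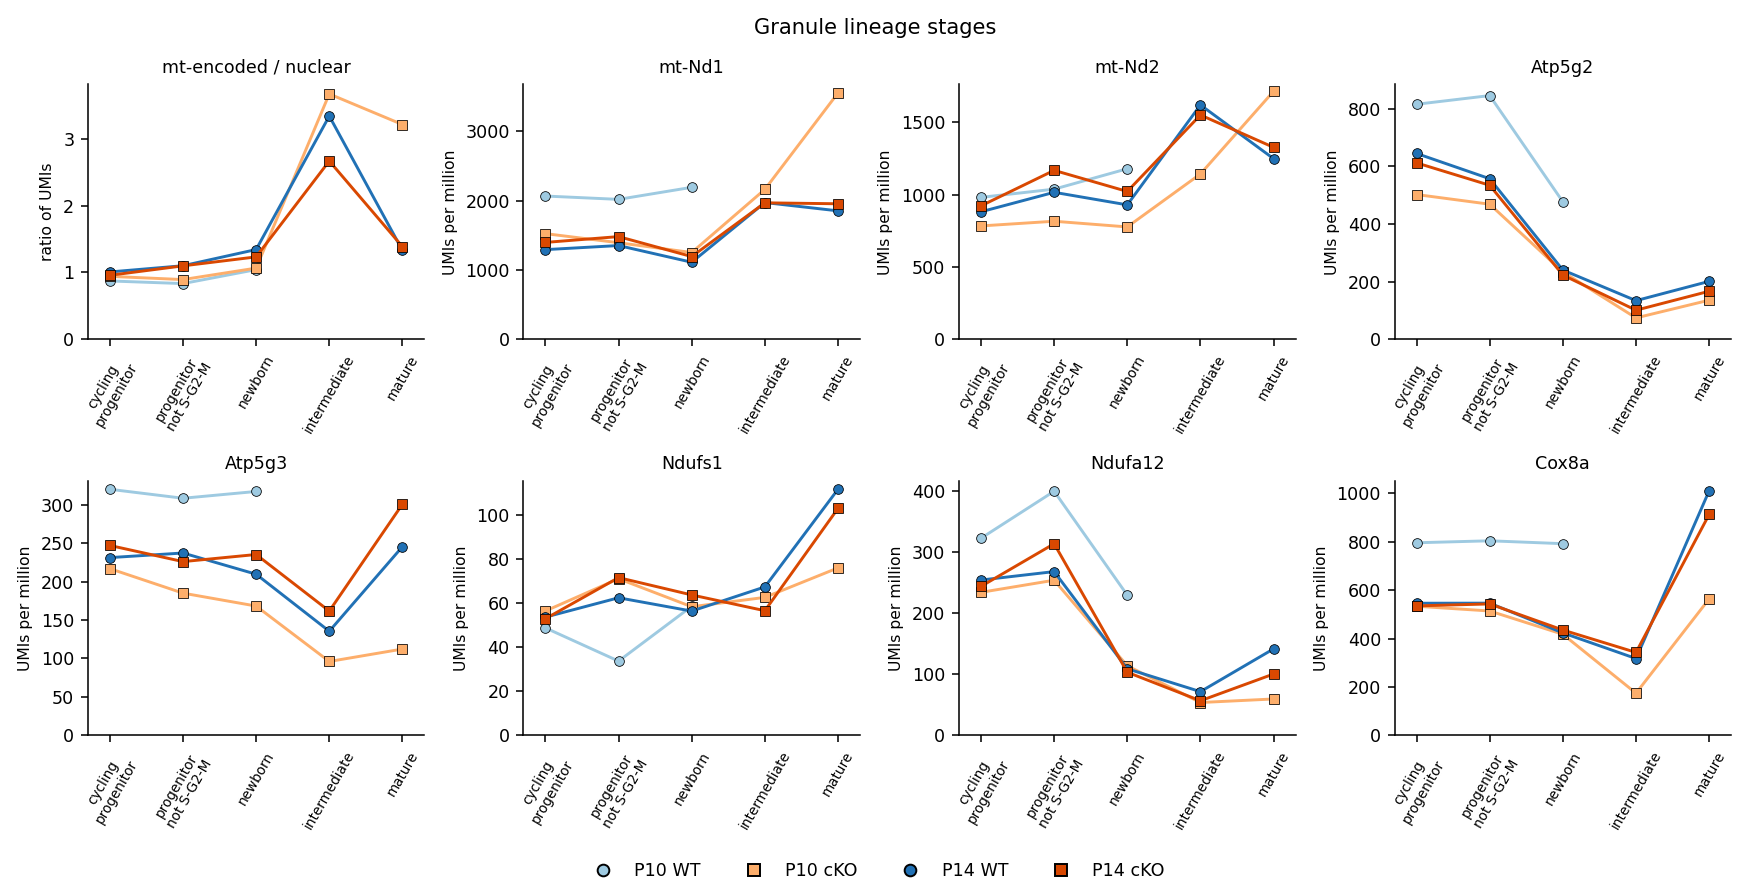
Ratio of mitochondrially encoded to nuclear member UMIs and levels of 7 members (CPM) over 5 stages of the granule lineage, 1 line per library. The ratio is highest at the intermediate stage, Atp5g2 and Ndufa12 are highest in progenitors, and mt-Nd1 is highest at the late stages.

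Genotypes were compared within each age. At P14 both libraries were made with the same program version, and nuclear members were higher in cKO in some classes. In microglia, the resident macrophages of the brain, 28 of 88 nuclear members with at least 50 UMIs in both libraries were higher by at least 1.5 fold and none lower, against 3.66% of all genes higher and 4.01% lower, and their median log2 ratio was 0.33 beside -0.08 for all genes. In astroglia 19 of 89 were higher and none lower, against 4.27% and 3.07%, with a median of 0.36 beside -0.01. Oligodendrocyte precursors had 8 of 88 higher (3.03% of all genes) and a median of 0.21. These counts describe 1 library against another and carry no test.

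The remaining classes had smaller or no differences at P14. Interneurons had 6 of 86 higher (1.02% of all genes), granule neurons 7 of 92 (8.66%), leukocytes 5 of 56 (10.5%), fibroblasts 5 of 82 (3.65%), border macrophages 4 of 34 (3.29%) with 1 lower (6.15%), endothelial cells 2 of 80 (2.70%) and granule cell progenitors 1 of 90 (3.03%). Their medians lay between -0.06 and 0.10. Oligodendrocytes had none higher and 3 of 90 lower, against 5.67% higher and 10.8% lower among all genes, with a median of -0.14. Their median depth was 28399 UMIs in WT and 1491 in cKO.

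The members with the widest ratios were small subunits. In microglia the complex I subunit Ndufa1 had 50.2 CPM in WT and 119 in cKO, a log2 ratio of 1.25 (counting interval 1.04 to 1.45), followed by Ndufa3 at 1.20 and Atp5k at 1.17. Sdhaf3 at -0.52, Ndufaf7 at -0.18 and Uqcrc2 at -0.15 were lowest. In astroglia Cox7a1 had 6.68 CPM from 56 UMIs in WT and 19.0 CPM from 50 UMIs in cKO, a ratio of 1.51 (0.92 to 2.08). Atp5md and Ndufa3 followed at 0.95 each, with 89.6 and 172 CPM for Ndufa3. Ndufaf3 at -0.27, Ndufc2 at -0.19 and Sdha, the flavoprotein of complex II, at -0.09 were lowest.

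The same small subunits led in other classes. In granule neurons Ndufa1 and Atp5md stood at 0.65 and Atp5k at 0.63, and Cox7a2l had 276 CPM in WT and 193 in cKO, a ratio of -0.52, with Ndufb8 at -0.23. In granule cell progenitors Atp5md was 0.63, Atp5k 0.57 and Ndufa3 0.56, and Ndufs8 was -0.39, Ndufb8 -0.33 and Ndufaf6 -0.30. In oligodendrocytes Ndufa3 was 0.51, and Ndufaf7 at -0.79, Sdhaf3 at -0.63 and Atp5b, the catalytic beta subunit, at -0.62 were lowest.

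Transcript length moved with these ratios. Across nuclear members, which share their 2 libraries, the correlation of log2 length with the P14 log2 ratio lay between -0.30 and -0.64 over the 11 classes. Members under 600 nt had medians of 0.37 in granule neurons, 0.63 in astroglia and 0.75 in microglia, and other genes under 600 nt had 0.19, 0.38 and 0.37. Set against genes of like transcript and intron length, the nuclear median was 0.23 in astroglia with 4 members past 1.5 fold, and 0.24 in microglia with 13. In the other 9 classes it lay between -0.03 and 0.08. What lies behind the relation with length was not tested.

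Mitochondrially encoded members showed no steady course with length at P14. In the ranges under 600, 600 to 1000 and 1000 to 2000 nt their median log2 ratios were 0.78, 0.18 and 0.40 in astroglia. In microglia they were 1.00, 0.09 and 0.23. In astroglia their P14 median log2 ratio was 0.40 and all 13 were above 0, in microglia 0.23 with 12 of 13 above 0, and in the other classes -0.29 to 0.21. Of the short genes, mt-Nd4l had ratios of 0.49 or more in each class where it had 50 UMIs in both libraries. It overlaps mt-Nd4 on the same strand by 7 bp, and the effect of this on its counts was not tested. Relative to genes of like length the astroglial and microglial medians were 0.26 and 0.15. In microglia the dissociation-response genes summed to 13374 CPM in WT and 9684 in cKO, with 4 of 9 lower by 1.5 fold, and glycolysis genes had a median of 0.42. Oligodendrocyte markers summed to 130 CPM in WT and 445 in cKO microglia, and choroid plexus markers to 253 and 17. The part of these differences in the member ratios was not tested.

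**Figure D5:**
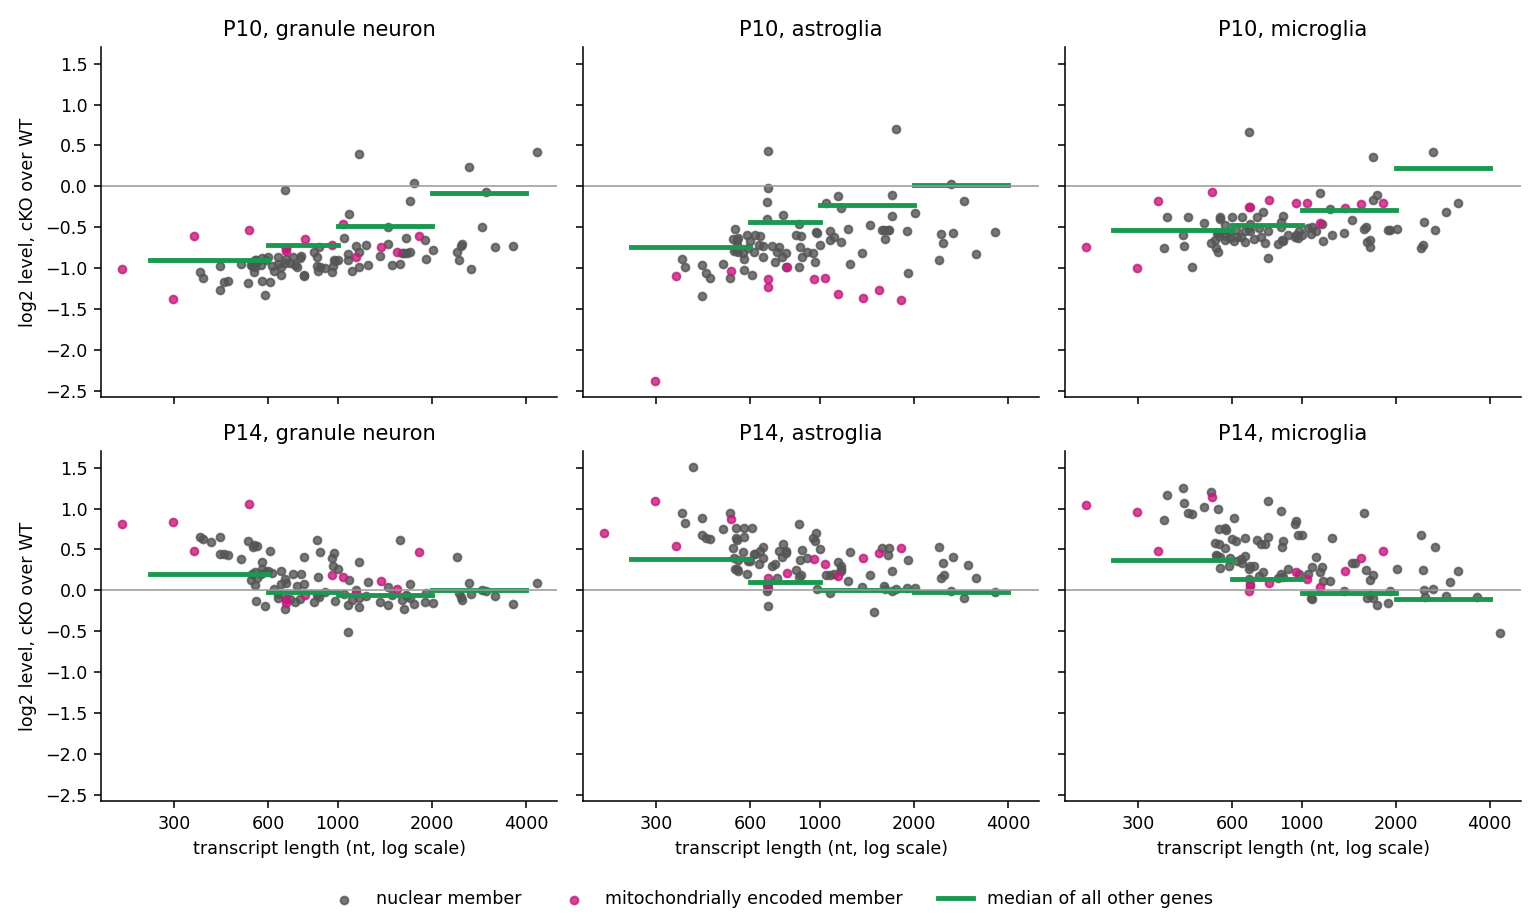
Log2 ratio of cKO over WT (y axis) against transcript length (x axis, log scale) for members in granule neurons, astroglia and microglia at P10 (top) and P14 (bottom); green bars are medians of all other genes in a length range. By their medians, short nuclear members lie lowest at P10 and highest at P14.

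At P10 nuclear members were lower in cKO in each class, with medians from -0.92 in interneurons to -0.41 in endothelial cells. In granule cell progenitors 50 of 91 were lower by at least 1.5 fold, against 7.47% of all genes, in granule neurons 80 of 90 (24.4%), in astroglia 54 of 83 (14.0%) and in microglia 36 of 82 (8.24%). The counts were 72 of 81 in interneurons (40.2%), 76 of 85 in oligodendrocyte precursors (22.9%), 49 of 87 in oligodendrocytes (12.4%) and 33 of 66 in border macrophages (11.5%). They were 9 of 23 in leukocytes (11.4%), 23 of 82 in fibroblasts (5.34%) and 6 of 79 in endothelial cells (5.64%). The P10 libraries came from different program versions, and the correlation of log2 length with the log2 ratio had the reverse sign, 0.27 to 0.56. Relative to genes of like transcript and intron length the medians shrank to between -0.27 and -0.05. The P10 libraries also differed in sex-linked RNA, for which no values are given here. Genotype, program version and such other differences between the libraries cannot be told apart at P10.

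Mitochondrially encoded members at P10 differed by class. Their median log2 ratio was -1.19 in astroglia, where 12 of 12 were lower by 1.5 fold, -0.78 in interneurons, -0.74 in granule neurons and -0.46 in progenitors. It was 0.05 in fibroblasts and 0.13 in leukocytes. Relative to genes of like length the astroglial median was -0.70 and the other 10 were above 0. Those of interneurons and granule neurons changed sign to 0.13 and 0.05, and that of progenitors to 0.09. Oligodendrocyte precursors went from -0.49 to 0.28, oligodendrocytes from -0.16 to 0.44, microglia from -0.22 to 0.26, border macrophages from -0.23 to 0.36 and endothelial cells from -0.02 to 0.40.

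With both ages taken as replicates of a genotype, edgeR's quasi-likelihood test called no gene for genotype in any of the 11 classes, members included. It called none for age either, with both genotypes as replicates. At an unadjusted p under 0.05 genotype had 0 members in each class apart from 1 in endothelial cells. Age had 0 apart from 7 in endothelial cells, 2 in fibroblasts and 1 in astroglia. DESeq2 called no member for either term, and 0 to 93 genes for genotype and 1 to 142 for age per class. The fit had 1 residual degree of freedom, and in simulated microglia it recovered none of the genes changed by 2 fold and 9.5% of those changed by 4 fold.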

How the data were processed

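The authors deposited 4 droplet-based single-cell matrices of raw UMI counts. Per the file headers, Cell Ranger made P10 WT in version 5.0.0, P10 cKO in 7.0.1 and the P14 libraries in 7.1.0. The tools named in the submitters' processing notes are Seurat 4.1.3 and Cell Ranger 3.0.2, with mm10 as the build. Whether intronic reads were counted is not given in the sources used here.

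Cells with at least 500 genes and at most 20% mitochondrial UMIs were kept, and doublets were removed with Scrublet (Scanpy 1.11.5) at 1 score threshold, 0.2288, the mean of the automatic thresholds of the 2 libraries where one was found, chosen after seeing the data. A class needed 3 of its markers and at most 0.5 times as many of any other class. Granule cell progenitors and granule neurons were exempt from the second limit against each other. Between them a cell went to the class with the larger share of its markers positive. In P10 WT, progenitors had a median of 6 of their own and 4 granule neuron markers. UMIs were summed per class and library. Classes and stages were tested with edgeR 4.0.16 (quasi-likelihood, filterByExpr with a minimum count of 10, TMM, library as block, Benjamini-Hochberg adjustment), which was tested on simulated data: 94.5% and 98.5% of class differences and 86.0% and 97.5% of stage differences of 2 and 4 fold were recovered. DESeq2 1.42.0 was an alternative. Ratios of cKO over WT had 0.5 UMI added and needed 50 UMIs in both libraries for counts of members. Lengths came from GENCODE vM21 (GRCm38) and promoters from RefSeq.

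Named genes were the mitochondrially encoded members, the isoform pairs, up to 5 called nuclear members per direction in each class contrast and for mature neurons against progenitors, 3 per direction in P14 comparisons, the extremes of each complex and up to 4 per other list. A few results by this rule are not reported here. Other members were named after their values were seen. The members and lists were chosen with earlier results of these data known. P-values measure the spread between libraries, which differ in age and genotype.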

Additional observations from a re-analysis of the deposited data

Results flagged for a closer look

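Members whose genotype difference pointed in opposite directions at the 2 ages were sought in the classes with at least 50 UMIs in each library. Of 94 members with at least 6 such classes, 22 were lower in cKO at P10 and higher in cKO at P14 in every one of them. The share of all genes that meet this rule was not computed, so the count cannot be called particular to the members. For 3 of the 22 the difference passed 1.5 fold at both ages in at least 6 classes, and these are given here. Atp5md, a small subunit of complex V, had a median P14 minus P10 difference of 1.611 on the log2 scale over 9 classes, and 7 of these passed 1.5 fold both ways. For Ndufa3, an accessory subunit of complex I, the value was 1.664 over 9 classes, with 6 past 1.5 fold both ways. For mt-Nd4l, a mitochondrially encoded subunit of complex I, it was 1.96 over 9 classes, 8 of them past 1.5 fold both ways, with a median log2 ratio of -1.03 at P10 and 0.84 at P14. The highest mt-Nd4l ratio at P10 was -0.78 and the lowest at P14 was 0.49. mt-Nd4l overlaps mt-Nd4 on the same strand by 7 bp. The medians of mt-Nd4 were -0.37 at P10 and 0.16 at P14, with 0 of 11 classes past 1.5 fold both ways. The effect of the overlap on the mt-Nd4l counts was not tested. With 1 library per group the difference between the ages was not tested. The libraries at P10 came from different program versions and differed in sex-linked RNA. Other genes under 600 nt also had negative median log2 ratios at P10 and positive ones at P14 in each of the 11 classes. In granule neurons these medians were -0.91 and 0.19. Transcript length moved with the ratios in opposite directions at the 2 ages, and its part in the values of the members was not tested.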

How the results depend on the processing

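Of 270 counts and values of the main comparisons under alternatives, 238 were taken as unchanged. For counts this meant equal or within 1.5 times, and for mitochondrial to nuclear ratios within the SD over libraries. The 238 include genotype counts that were 0 in both the main fit and DESeq2. The cause of the 32 others was not tested. Leaving out 1 library gave 11 to 22 nuclear members higher in astroglia (main count 11), 4 to 9 in granule cell progenitors (14), 24 to 36 lower in microglia (23) and 13 to 19 higher in oligodendrocytes (10). For mature granule neurons against progenitors it gave 17 to 35 called members of both genomes together (27). Of these, 2 to 9 were mitochondrially encoded members higher in mature neurons (9) and 8 to 23 were nuclear members lower there (11). For granule cell progenitors the count was 6 with TMM computed without mitochondrially encoded genes, 4 with DESeq2, 6 with at least 1000 genes per cell and 6 with at least 2000 UMIs per cell, the last chosen after seeing the data. Astroglia had 6 mitochondrially encoded members higher with at most 10% mitochondrial UMIs (10), and interneurons 3 lower with DESeq2 (6).

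The classes and stages of 1 library share that library, and without this replicate block interneurons had 9 nuclear members lower (14). Mature neurons against progenitors then had 15 called members of both genomes together, with 1 mitochondrially encoded member higher (9). Newborn neurons had 4 nuclear members lower (10). Genotypes could not be paired by replicate number, since each had 1 library per age. With no filter on low counts, mature neurons had 17 nuclear members lower and newborn neurons 6. Age then had 2 calls of members over the classes together (0).

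At P14 the members higher in cKO, 85 over the 11 classes, were 30 relative to genes of like transcript and intron length, a comparison chosen after seeing the data. In astroglia they were 32 with cells thinned to 2000 UMIs, 10 scaled to genes with introns under 5 kb and 4 relative to genes of like length (19), and in microglia 18 and 13 under the last 2 (28). At P10 the members lower, 488, were 225 after thinning, 1 on the short-intron scale and 52 relative to genes of like length. The P10 median of mitochondrially encoded members turned from negative to positive under both scales in each class where it was negative except astroglia. Of medians past 1.5 fold it turned from -0.7843 to 0.0734 and 0.1332 in interneurons and from -0.7448 to 0.0814 and 0.0518 in granule neurons, the short-intron value first.

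No member could be tested for genotype at 1 age, the mature stage rested on 24 to 114 cells in 3 libraries, and sparse members such as Cox6a2 and Cox8b were limited by depth.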

Other observations

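Within the mitochondrially encoded pool the members held different shares. Over classes and libraries mt-Co3 took 18.03% to 22.8% of the pool, mt-Atp6 14.5% to 20.9% and mt-Co2 12.1% to 16.1%. mt-Co1 took 9.36% to 20.4% and mt-Cytb 8.10% to 18.9%. The least represented members were mt-Nd6, with 0.046% to 0.19%, and mt-Atp8, with 0.042% to 0.23%. mt-Atp8 shares its transcript with mt-Atp6 in the mouse.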
